A study of Mus musculus with 2 samples.

Results

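Dkc1, Nop58 and Odc1 are 3 genes of nucleolar function and growth that were picked by name from a table of 2381 loci differing between Trrap-deleted and control mouse cortex. They were picked because each was lower in the Trrap-deleted library, so their direction below is a description of the values and carries no test. The Trrap-deleted sample, named Trrap-CNSD in the labels, had the genotype TrrapF/F NestinCre+. The control sample, entered as wild type, had the genotype TrrapF/+ NestinCre+, so it also carried the Cre transgene and 1 floxed allele. Both came from the cortex of B6/129 embryos at stage E14.5, and each genotype was measured in 1 RNA sequencing library. Cre under the Nestin promoter acts in neural progenitors and their descendants, so other cells in the cortex, such as vessels, meninges and microglia, may still have had intact Trrap. How many embryos made up each library is not stated in those labels. Trrap itself was not listed, so the deletion could not be checked on its transcript.

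Dkc1 encodes dyskerin, the pseudouridine synthase of box H/ACA small nucleolar ribonucleoproteins, which isomerise uridines in ribosomal RNA and also stabilise the telomerase RNA. Nop58 encodes a core protein of the other class, the box C/D particles, which guide 2'-O-methylation and early cleavage of ribosomal RNA. Odc1 encodes ornithine decarboxylase, which makes putrescine in the first committed step of polyamine synthesis. All 3 are known targets of the transcription factor Myc, which binds E-box DNA with its partner Max and recruits TRRAP, the scaffold of histone acetyltransferase complexes. Dividing progenitors of the embryonic cortex make ribosomes at a high rate, and Mycn is the main Myc family member of neural progenitors.

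The stretches upstream of the 3 genes are shown because all 3 are known Myc targets and Myc acts through E-boxes. Each is the plus strand of GRCm38.p6 from RefSeq, ending on the base before the annotated gene start, with capitals marking matches to the motifs named after the sequences.
Dkc1: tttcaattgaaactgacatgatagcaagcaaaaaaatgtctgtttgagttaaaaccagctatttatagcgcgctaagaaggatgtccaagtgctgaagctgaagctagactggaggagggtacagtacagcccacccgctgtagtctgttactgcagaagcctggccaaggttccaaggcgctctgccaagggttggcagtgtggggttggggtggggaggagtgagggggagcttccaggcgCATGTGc
Nop58: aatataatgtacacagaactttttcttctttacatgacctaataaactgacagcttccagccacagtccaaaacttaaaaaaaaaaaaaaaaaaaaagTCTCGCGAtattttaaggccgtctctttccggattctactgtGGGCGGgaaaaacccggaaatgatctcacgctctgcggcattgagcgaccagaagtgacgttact
Odc1: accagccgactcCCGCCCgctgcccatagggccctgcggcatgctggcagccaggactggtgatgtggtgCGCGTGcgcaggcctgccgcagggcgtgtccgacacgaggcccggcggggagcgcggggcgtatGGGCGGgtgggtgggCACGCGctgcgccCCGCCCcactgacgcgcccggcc
The Dkc1 stretch is chrX:75095604-75095853, the Nop58 stretch chr1:59684756-59684960 and the Odc1 stretch chr12:17544623-17544807, all on GRCm38.p6.

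Searched on both strands of the whole 300-base promoter windows, the canonical E-box CACGTG was in 0 of the 3 members and in 7.15% of 32851 promoters. The E-box variant CACGCG was in 1 member, Odc1, with 2 matches, and in 9.27% of promoters. The variant CATGTG was in 1 member, Dkc1, where it ends just before the gene start, and in 14.2% of promoters. The GC box GGGCGG, the motif of Sp1, was in Nop58 and Odc1 and in 35.7% of promoters. The element TCTCGCGA, recognised by BANP, was in Nop58 and in 0.995% of promoters, and CCAAT was in the Dkc1 window, downstream of the printed stretch, and in 37.4% of promoters. No motif overlapped another. The stretches also differed in composition, with a G and C content of 52.0% for Dkc1, 40.0% for Nop58 and 77.8% for Odc1. These matches describe letters only; the E-boxes through which Myc is known to act on Odc1 lie in an intron, outside the window. Binding of Myc or Trrap was not measured.

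Dkc1 had 34.3 FPKM in the Trrap-deleted library, against 63.5 FPKM in the control library. FPKM, fragments scaled by transcript length and library size, is the unit read from the table's layout. The log2 fold change of Dkc1, Trrap-deleted over control, was -0.89, or 1.85-fold lower. Its row on mm9 runs over chromosome X, 72341193 to 72376355, and has a q-value of 0.0166 in the authors' deposited table, the weakest of the 3. By q-value it stood at place 1752 of 2381.

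The row named Dkc1 is wider than the gene. It covers 35163 bases, whereas the annotated Dkc1 gene covers 13924 bases in GENCODE M21. Dkc1 lies on the plus strand and its 3' end overlaps by 45 bases the end of Mpp1, a membrane scaffold gene on the minus strand, and the pair together span 35163 bases in that annotation. The row's length thus equals that of the pair, Mpp1 has no row of its own, and the labels do not say whether counting used strand. Part of the Dkc1 value may come from Mpp1 reads, and its level and fold change are uncertain for that reason.

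Nop58 had 21.3 FPKM in the Trrap-deleted library, against 38.6 FPKM in the control library, the lowest level of the 3 in each. Its log2 fold change was -0.86, or 1.81-fold lower. The row (mm9, chromosome 1, 59741746 to 59775867) covers 34122 bases, close to the 34074 bases annotated for Nop58, with no other coding gene overlapping it. Its q-value in the authors' deposited table is 7.42e-07. In GENCODE M21 the gene overlaps 4 annotated small nucleolar RNAs, among them Snord70 and Snord11, and Dkc1 (Gm25520) and Odc1 (Gm22748) each overlap 1 of the same class. No level of these RNAs was analysed here.

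Odc1 was the most abundant of the 3, with 86.0 FPKM in the Trrap-deleted library, against 141 FPKM in the control library. Its log2 fold change was -0.72, or 1.64-fold lower, the smallest of the 3. Its row (mm9, chromosome 12, 17551679 to 17558571) covers 6893 bases, against 6712 annotated, with no overlapping coding gene. The authors' deposited table gives it a q-value of 5.55e-09, the smallest of the 3.

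**Figure D1:**
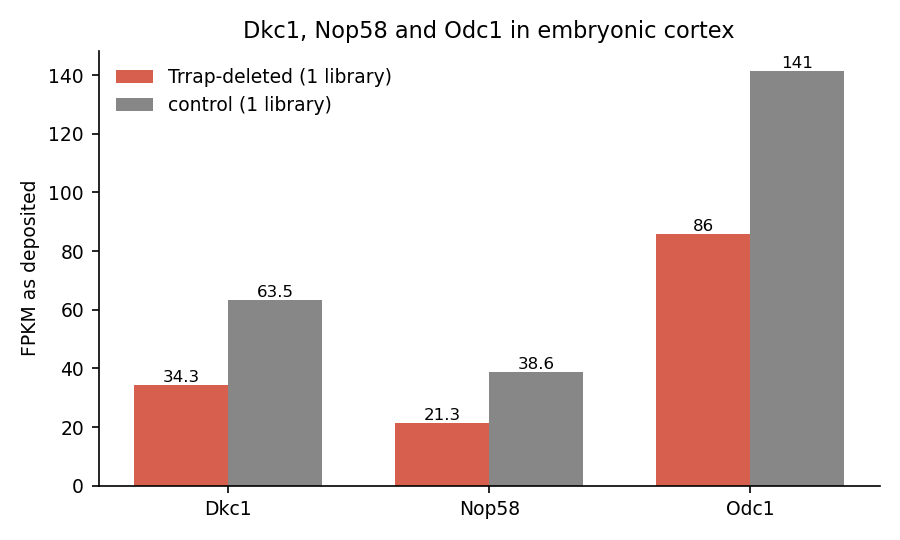
Deposited FPKM of Dkc1, Nop58 and Odc1 in the Trrap-deleted library (left bar of each pair) and the control library (right bar), 1 library each and so without error bars. Odc1 is the tallest pair, at 86.0 and 141 FPKM, and in each pair the Trrap-deleted bar is the lower.

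The 3 genes kept the same order of level in the Trrap-deleted and the control library, Odc1 above Dkc1 above Nop58. Odc1 exceeded Nop58 4.03-fold in the Trrap-deleted library and 3.66-fold in the control library. Dkc1 exceeded Nop58 1.61-fold in the Trrap-deleted library and 1.64-fold in the control library. Their log2 fold changes lay within 0.17 of each other, and those of Dkc1 and Nop58 within 0.03. With 1 library per genotype there is no spread to set these gaps against, and no p-value for a genotype difference was computed. In tissue RNA of this kind, fewer cells of a type and less RNA per cell cannot be told apart.

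All 3 members were at least 1.5-fold lower in the Trrap-deleted library, as were 31.4% of all listed rows. Since the members were chosen on this contrast, nothing is read from that count. Among the 2376 rows whose values exceeded 0 in each library, 17.1% had a log2 fold change as low as that of Dkc1, 18.0% as low as Nop58 and 24.3% as low as Odc1. The median of the rows that were lower was -0.80, so Dkc1 and Nop58 lay just below that median and Odc1 just above it.

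Abundance set different company for each gene. Rows were split into 10 equal bins by mean FPKM. In the most abundant bin, which holds Odc1, 82.8% of 238 rows were lower and the median log2 fold change was -0.56. In the bin that holds Dkc1, 45.8% of 238 rows were lower and the median was 0.41. In the bin that holds Nop58, 41.4% of 237 rows were lower and the median was 0.50. Odc1 thus had the common direction of rows in its bin, and Dkc1 and Nop58 had the less common one. Odc1, with a mean of 113.6 FPKM, was at the lower edge of its bin, which runs from 112.6 to 2951 FPKM. Dkc1, at 48.9 FPKM, was near the upper edge of its bin, which ends at 52.6 FPKM. In the bin between, 61.6% of rows were lower and the median was -0.50, so the figures for Odc1 and Dkc1 depend on the bin edges. Listed rows leave a gap around 0, because small differences did not pass the authors' test, so a bin's median jumps from one side to the other.

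**Figure D2:**
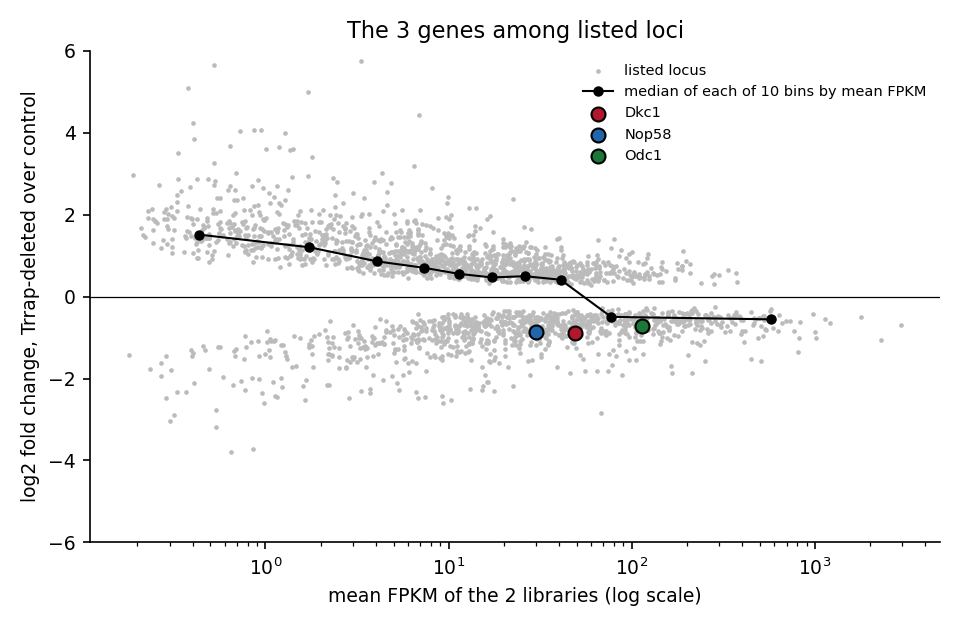
Log2 fold change, Trrap-deleted over control, against mean FPKM of the 2 libraries (log axis) for listed loci (grey), with the median of each of 10 bins by mean FPKM (black line) and the 3 genes in colour. Nop58, Dkc1 and Odc1 lie side by side in the lower band between -0.89 and -0.72, and 6 loci beyond 6 log2 units either way are not drawn.

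The rows most like each gene, by distance in the log2 values of the 2 libraries, were of mixed kinds. Nearest to Odc1 was Rps27a, a gene for a ubiquitin and ribosomal protein fusion, at 85.6 FPKM in the Trrap-deleted and 141 FPKM in the control library. Rps26-ps1 and Rpl21-ps8 came next. Nearest to Nop58 was Trim24, a chromatin reader and transcriptional cofactor, at 21.2 FPKM in the Trrap-deleted and 37.9 FPKM in the control library. Gm12397 and 2810417H13Rik (Pclaf, a PCNA-binding protein gene) followed. Nearest to Dkc1 were Gm11478, Ankrd13b and Gm7110. With only 2 libraries, likeness means a similar level and fold change and nothing further.

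Most partners of Dkc1 and Nop58 in their particles were not listed. How many genes the authors tested is not given, so no expected share can be set beside the counts of listed symbols. Of 11 symbols for box H/ACA and telomerase genes, 2 were listed, Dkc1 and Nhp2. Without Dkc1, which was chosen for being lower, Nhp2 alone remained, and it was lower, as were 42.0% of all listed rows. Nhp2, a core protein that sits beside dyskerin in the particle, had 15.4 FPKM in the Trrap-deleted library, against 30.7 FPKM in the control library (log2 fold change -0.996). Its row shares the limit of the Dkc1 row: it covers 16162 bases, the same as Nhp2 (3980 bases annotated) joined to Rmnd5b, which overlaps it by 44 bases on the opposite strand. The core genes Nop10 and Gar1 and the telomerase genes Tert and Terc were not listed. Of 13 symbols for box C/D genes Nop58 alone was listed; its partners Nop56 and Fbl (fibrillarin, the methyltransferase), and the assembly ATPases Ruvbl1 and Ruvbl2, which also belong to Trrap complexes, were not. In these lists an older and a newer symbol of the same gene count separately. A gene that is not listed may have missed the authors' threshold or may not be in the table for another reason, so it is not called unchanged.

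Of 24 symbols for polyamine genes 5 were listed, 4 lower and 1 higher, with a median log2 fold change of -0.75. Without Odc1, which was chosen for being lower, 3 of 4 were lower, as were 42.0% of all listed rows. The median of these 4 was -0.79, against 0.54 over all rows with values in both libraries. Sms, spermine synthase, had 19.8 FPKM in the Trrap-deleted library, against 41.0 FPKM in the control library, a log2 fold change of -1.05. Amd1, S-adenosylmethionine decarboxylase, which supplies the aminopropyl donor for spermidine and spermine, had 10.6 FPKM in the Trrap-deleted library, against 18.7 FPKM in the control library (log2 fold change -0.82). Besides Odc1, the lower genes thus included the decarboxylase of S-adenosylmethionine and the last synthase of the pathway. Amd2, a close copy of Amd1, had 7.39 FPKM in the Trrap-deleted library, against 12.4 FPKM in the control library, and reads may be split between the copies. Srm, spermidine synthase and another Myc target, the catabolic genes Sat1 and Smox, and the antizyme gene Oaz1 were not listed.

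The exception was Adc, now named Azin2, an antizyme inhibitor related in sequence to ornithine decarboxylase, which protects that enzyme from antizyme. Adc had 10.3 FPKM in the Trrap-deleted library, against 2.98 FPKM in the control library, 3.47-fold higher (log2 fold change 1.79, q-value 0.000287 in the authors' deposited table). Rows higher in the Trrap-deleted library made up 58.0% of the table. Odc1 and this relative thus differed in opposite directions between the libraries, and enzyme activity and polyamines were not measured.

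Few symbols for other genes of ribosome production were listed. The share of all measured genes that were listed is unknown, so nothing is read from how few. None of 20 symbols for RNA polymerase I and its factors was listed. Of 86 symbols for ribosomal RNA processing factors 5 were listed, 4 lower and 1 higher, beside 42.0% of all listed rows lower. Their median log2 fold change was -0.54, against 0.54 over all rows, which were not matched for abundance. Npm1, the nucleolar chaperone nucleophosmin, had 361 FPKM in the Trrap-deleted library, against 566 FPKM in the control library (log2 fold change -0.65). Ddx21, a nucleolar helicase, had 22.4 FPKM in the Trrap-deleted library, against 37.2 FPKM in the control library (log2 fold change -0.73). Nolc1, which binds small nucleolar ribonucleoproteins (Nopp140), and Heatr1, a component of the small subunit processome, had log2 fold changes of -0.54 and -0.43. Rrp1, a ribosomal RNA processing factor, was the higher one, with 186 FPKM in the Trrap-deleted library, against 121 FPKM in the control library. Rpf2, another factor of this list, shares a row with Gtf3c6 (21.7 FPKM in the Trrap-deleted and 35.7 FPKM in the control library) and was not counted.

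Of 14 symbols of the Myc and Max network, Mxi1 alone was listed, and Myc, Mycn and Max were not. Mxi1, which encodes a Max partner that opposes Myc, had 7.61 FPKM in the Trrap-deleted library, against 11.3 FPKM in the control library, a log2 fold change of -0.58. Of 40 symbols for further Myc targets 12 were listed and all 12 were lower, with log2 fold changes between -1.58 and -0.43 and a median of -0.71. Their 5 most abundant genes were Ptma, encoding the chromatin and growth-linked protein prothymosin alpha (675 FPKM in the Trrap-deleted and 1353 FPKM in the control library), the cell cycle kinase gene Cdk4, the splicing factor gene Hnrnpa1, the histone chaperone gene Set and the chaperonin subunit gene Cct3. Their log2 fold changes were -1.003, -0.97, -0.84, -0.74 and -0.67. Of the 12 targets 8 fell in the most abundant bin, where 82.8% of all rows were lower. The other 4 were Paics, Impdh2, Tfrc and Hk2, in bins where 61.6%, 45.8%, 42.0% and 34.9% of rows were lower. Hk2 (hexokinase 2) and Tfrc (the transferrin receptor), in the least abundant of these bins, had the lowest log2 fold changes of the list, -1.58 and -1.40. Rows that differ in length from the annotated gene leave some of these values uncertain. That of Ranbp1 was 5.53 times as long, that of Paics 3.52 times, that of Cdk4 2.44 times and that of Impdh2 1.32 times. Each of these genes overlaps a coding gene on the other strand. The Hnrnpa1 row covers 3501 bases, against 6261 annotated. Npm1, Ptma, Hnrnpa1 and Set have processed copies elsewhere in the genome, with which reads may be shared. Over the 7 lists, 23 genes besides the 3 members were listed of 205 symbols, 21 lower and 2 higher, in a table where 42.0% of rows were lower and 58.0% higher. Those shares are not matched for abundance. Of these genes, Npm1, Rrp1 and 8 Myc targets were in the most abundant bin, where 82.8% of rows were lower. The lists were drawn up with earlier results of these data known.

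**Figure D3:**
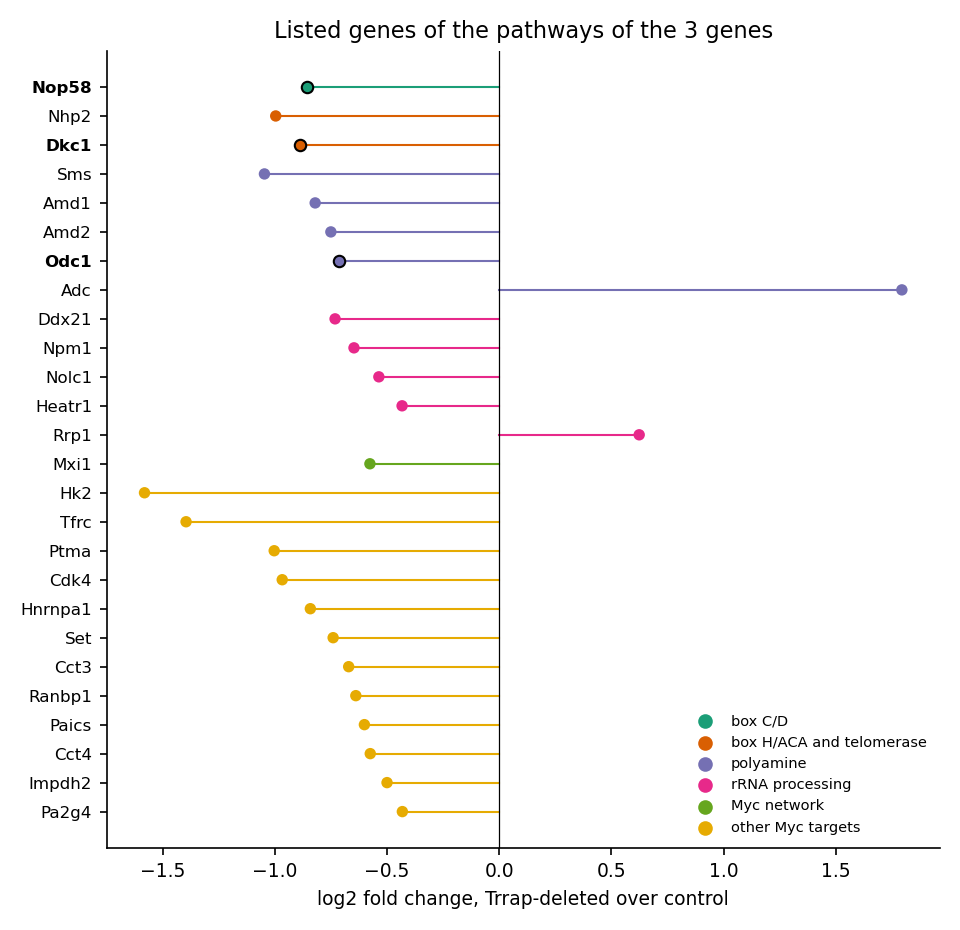
Log2 fold change, Trrap-deleted over control, of each listed gene in the lists around the 3 genes (1 line per gene, coloured by list, the 3 genes in bold with a black outline). Adc and Rrp1 are the 2 genes right of 0, and Sms, Nhp2, Dkc1 and Nop58 lie between -1.05 and -0.86.

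Dkc1 is X-linked, as is Sms, and the libraries differed in sex-linked transcripts. Xist, the RNA of the inactive X chromosome, had 142 FPKM in the Trrap-deleted library, against 313 FPKM in the control library, and the Y-linked gene Eif2s3y had 32.8 FPKM in the Trrap-deleted and 0.111 FPKM in the control library. The Xist row is 2.33 times as long as the annotated gene, with a gene on the other strand overlapping it, so its value is uncertain too. Ddx3y and Kdm5d were likewise near 0 in the control library and had 5.18 and 3.99 FPKM in the Trrap-deleted one. Of 105 listed X-linked rows 60 (57.1%) were lower and the median log2 fold change was -0.52, against 41.2% of 2259 autosomal rows, with a median of 0.55. Because listed rows leave a gap around 0, these medians fall on opposite sides of it and exaggerate the difference in shares. The X-linked rows were also more abundant, with a median mean FPKM of 19.6 against 13.6 for autosomal rows. The comparison was not matched for abundance. Nop58 and Odc1 are autosomal. Genotype and these sex-linked differences cannot be told apart with 1 library each, and their part in the Dkc1 and Sms values was not tested.

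Markers of other cells also differed between the libraries. Of 9 microglial markers 8 were listed, all higher, summing to 28.1 FPKM in the Trrap-deleted library and 10.8 FPKM in the control library. Among them, the Csf1r row is 2.27 times as long as the annotated gene, which overlaps a coding gene on the other strand. The Cx3cr1 row covers 19590 of 168264 annotated bases, so the sums are uncertain. All 5 meningeal markers were higher, summing to 15.4 FPKM in the Trrap-deleted and 2.66 FPKM in the control library. Of 8 ventral telencephalic markers 3 were listed, all lower, summing to 2.35 FPKM in the Trrap-deleted and 10.7 FPKM in the control library. These microglial, meningeal and ventral markers all fell in the 3 least abundant bins by mean FPKM. There 18.5%, 25.2% and 27.0% of rows were lower, against 42.0% of all listed rows. The microglial and meningeal markers thus had the common direction of rows at their level, and the ventral ones had the less common one. Of 6 erythroid markers, Hbb-y alone was listed, at 157 FPKM in the Trrap-deleted and 96.8 FPKM in the control library. Of 8 cortical progenitor markers, Vim (387 FPKM in the Trrap-deleted and 632 FPKM in the control library) and Prom1 (8.32 FPKM in the Trrap-deleted and 24.9 FPKM in the control library) were listed, both lower, whereas Pax6, Sox2 and Emx1 were not, so the tissue could be checked on few of its markers. Prom1 has another row as well, and the values given are those of its row with the higher mean FPKM. The basal progenitor marker Eomes was not listed, and of 6 cortical neuron markers 3 were, all lower. Stmn2 had 53.9 FPKM in the Trrap-deleted and 158 FPKM in the control library, 2.93-fold lower and so a larger difference than any of the 3 genes. Bcl11b was 1.33-fold and Neurod6 1.20-fold lower. Vim, Neurod6 and Hbb-y were in the most abundant bin, where 82.8% of rows were lower. Stmn2, Bcl11b and Prom1 were in bins where 61.6%, 45.8% and 42.0% were lower. The part of these cell markers in the values of the 3 genes was not tested.

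The scale of the fold changes depended on how the libraries were set against each other. Setting the summed FPKM of the listed rows equal shifts every log2 fold change by 0.35, and setting their median to 0 shifts it by -0.54. Both use only rows that passed the authors' test, so neither estimates the true scale of the libraries. The median also depends on which side of the gap around 0 holds more rows. Dkc1, Nop58 and Odc1 remained lower under each scaling tried. They were chosen for being lower, and the shift of -0.54 could only lower them further, so nothing is read from this. The bin medians of Dkc1 and Nop58, 0.41 and 0.50, likewise could not reverse them. Relative to the rows of its own abundance bin, Odc1 was at -0.16, the smallest value of any scaling, whereas Dkc1 was at -1.30 and Nop58 at -1.35. The values of Odc1 and Dkc1 depend on the bin edges near which these genes lie. Relative to the median of listed X-linked rows, which is subject to the same gap, Dkc1 had a log2 fold change of -0.37.

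**Figure D4:**
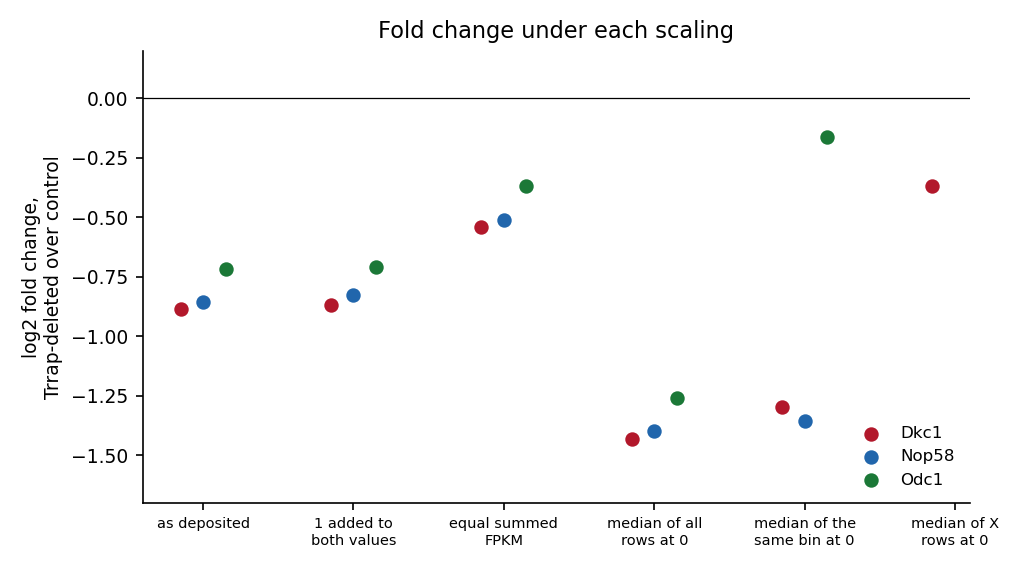
Log2 fold change of Dkc1, Nop58 and Odc1, Trrap-deleted over control, as deposited and under each alternative scaling (1 point per gene and setting). All points lie below 0, from -1.43 to -0.16, and the setting that uses X-linked rows applies to Dkc1 alone.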

How the data were processed

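Total RNA (2.5 µg per library, per the labels' protocols) from 1 Trrap-deleted and 1 control cortex sample was sequenced. TopHat2, with no version given, and the genome build mm9 were used, per the submitters' processing notes. The software used for counting and testing is not given in these sources. The table deposited by the authors holds 2381 rows. Its 2 value columns were read as FPKM, as deposited by the authors, from the column layout. The p-value and q-value columns are the authors' deposited test results, with a highest q-value of 0.0500. Read totals are not given, so depth is unknown and no counting interval could be set; no other per-sample column was present.

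Log2 fold changes were computed from the deposited FPKM values with Python 3.11.15, numpy 2.4.6 and pandas 2.3.3, without a pseudocount. Rows with several symbols (59) stayed out of the lists and of the search for nearest rows. Fold change ranks, bins and medians used the 2376 rows above 0 in both libraries. The place by q-value and the shares of all listed rows used all 2381 rows. The median and summed scaling shifts and the search for the nearest row were tested on simulated data. Starts were moved to 1-based counting. GENCODE M21 gave lengths and overlaps only; promoters came from RefSeq on GRCm38.p6, where all 3 genes matched.

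With 1 library per genotype no test was possible. The members and lists were chosen with earlier results of these data known. Named were the 3 members, every listed gene of the small lists, the 5 most abundant listed genes of each of the 2 large lists, 4 sex-linked transcripts and the 3 nearest rows to each member. Other genes are named only as not listed, as examples of the lists, or for a shared row. Hk2, Tfrc, Paics, Impdh2, Ranbp1, Csf1r, Cx3cr1, Vim, Prom1, Stmn2, Bcl11b, Neurod6, Hbb-y, Eomes, Pax6, Sox2 and Emx1 were named after their values were seen. Alternatives were other scalings, a pseudocount of 1, and other thresholds for the background share.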

Additional observations from a re-analysis of the deposited data

How the results depend on the processing

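Dkc1, Nop58 and Odc1, chosen for being lower, had a negative log2 fold change under every setting tried. A pseudocount cannot change a sign and the median scaling lowers every value, so nothing is read from the shared sign. With 1 added to both values the log2 fold changes were -0.87, -0.83 and -0.71. Rescaled to a median of 0 over listed rows they were -1.43, -1.40 and -1.26, and rescaled to equal summed FPKM -0.54, -0.51 and -0.37. Within the same abundance bin they were -1.30, -1.35 and -0.16, where those of Dkc1 and Odc1 depend on nearby bin edges. Against listed X-linked rows, a setting chosen after seeing the data, Dkc1 was at -0.37 and Sms at -0.53, and the X-linked median itself moved to -1.06 under the median scaling and -0.17 under the summed one. The box C/D list, which is Nop58 alone, moved to -1.40 and -0.51 under those same scalings. The box H/ACA median, of Dkc1 and Nhp2, moved to -1.48 and -0.59. The polyamine median, with Odc1 included, moved to -1.29 and -0.40, and that of ribosomal RNA processing to -1.08 and -0.19. The Myc network, which is Mxi1 alone, moved to -1.12 and -0.23, and the median of other Myc targets to -1.25 and -0.36. None of the listed genes changed direction under either scaling, but the members among them were chosen for being lower. Without Amd2, also chosen afterwards, the polyamine median was -0.77. The share of rows at least 1.5-fold lower, 31.4%, became 13.6% at 2-fold and 15.5% after equal summed FPKM, and lay between 34.1% and 42.0% with an FPKM of at least 5, a q-value under 0.01 or the median scaling. These shifts follow from the construction of each scaling. RNA polymerase I had no listed gene and so no value. No paired analysis was possible because each genotype had 1 library, which also meant that no replicate could be left out. Unknown depth limits how precisely any single value is known.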
